A study of Rattus norvegicus with 27 samples.

Results

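Parotid acinar cells of rats at postnatal day 9 (P9) were compared with those of rats at postnatal day 5 (P5), on 3 arrays per age and over all 31042 probe sets that are not array controls. These 6 arrays are all those of the 2 ages and 6 of the 27 arrays of the study, which followed the gland over 9 ages from embryonic day 18 (E18) to P25. Every animal was of the strain the labels spell Sprauge Dawley and none was treated or altered genetically. Cells were cut out of tissue sections with a laser, and total RNA was amplified, tagged with biotin and applied to Affymetrix whole-genome rat arrays. The P5 tissue, like that of P2 before it, was a section through a head halved along the midline, whereas P9 was the first age taken from dissected glands, as P15 was after it. Age and preparation therefore cannot be told apart between P5 and P9. Levels are in log2 units after the robust multi-array average (RMA), and changes are differences of the 3 arrays' means in log2 units ± standard error (SE) from limma. A replicate is an animal sample from its own litter per the study's methods.

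The acinar cell is the secretory unit of a salivary gland. In the parotid it is serous: it packs enzymes, proline-rich proteins and antimicrobial proteins into granules, empties them on nerve signals, and moves chloride and water after them. In the rat it takes on this work in the weeks around and after birth, while the bud-like growth of the embryonic gland comes to its end. Fat cells, muscle, skin, hair follicles, bone, lymph nodes and the other salivary glands lie close to it in the head.

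The captured RNA was that of serous cells at both ages, and it also held RNA of neighbouring tissues. Bpifa2, the parotid secretory protein, lay at 13.03 to 13.18 in the P5 arrays and 13.27 to 13.60 in the P9 arrays, near the top of the scale, which ended at 14.63. The mean of 9 serous acinar markers ran from 9.77 to 10.14 at P5 and from 10.80 to 11.08 at P9. Keratinocyte markers (13 genes) averaged 9.98 in P5 replicate 2 against 7.73 and 7.74 in the other P5 arrays and 5.54 to 7.03 at P9. Skeletal muscle markers (27 genes) averaged 6.36 in P5 replicate 2, 9.65 and 9.07 in P5 replicates 1 and 3, 7.84 and 8.04 in P9 replicates 1 and 2, and 10.80 in P9 replicate 3. These lists thus mark P5 replicate 2 and P9 replicate 3 as arrays that stand apart, while at P15 both lists were low, at 4.99 to 5.39 for keratinocytes and 4.99 to 6.54 for muscle. Pearson correlations between arrays were 0.937 to 0.952 within P5 and 0.887 to 0.940 within P9.

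**Figure D1:**
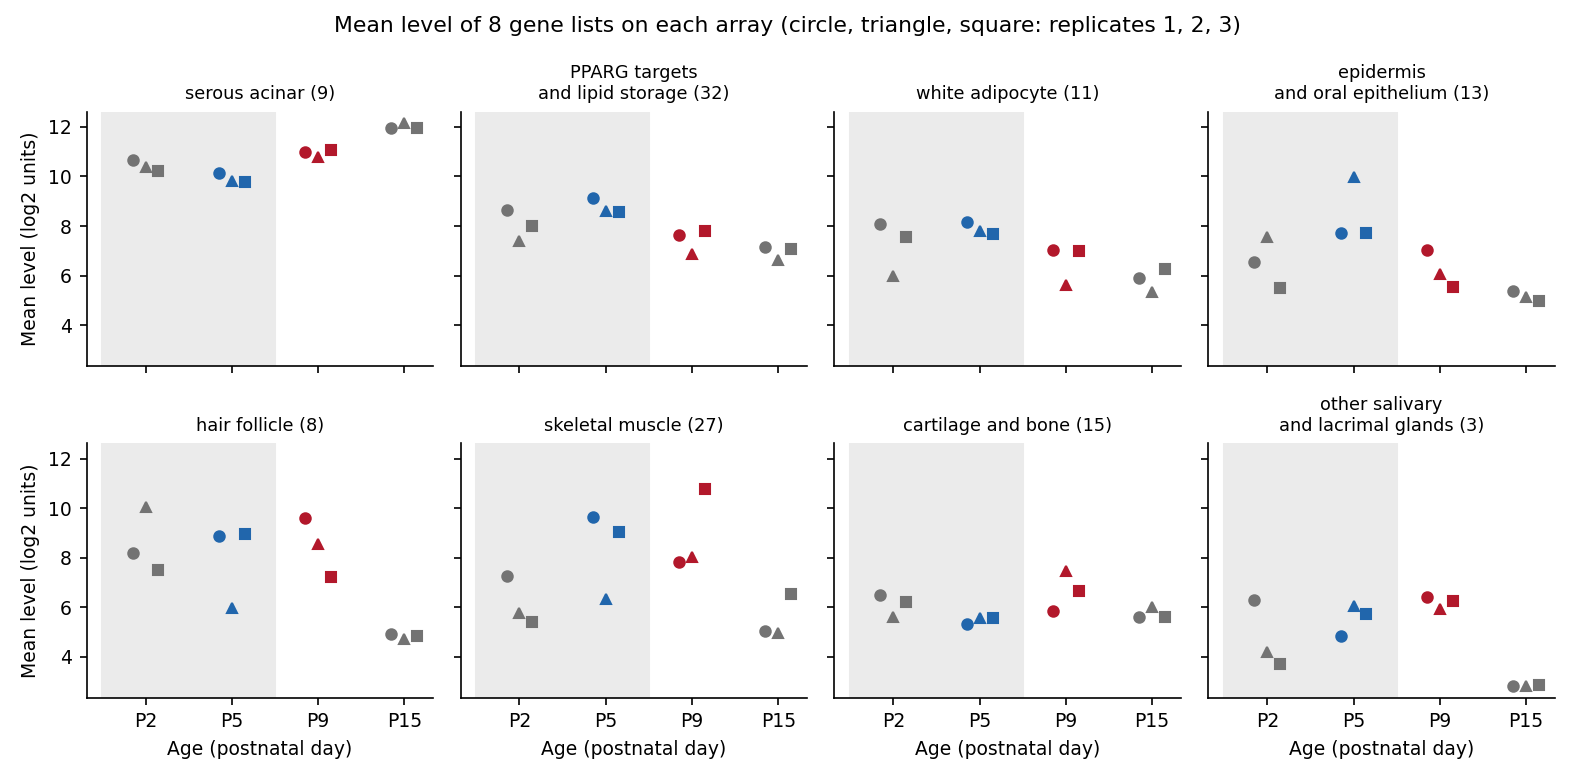
Mean log2 level of 8 gene lists (number of measured genes in brackets) on each of the 12 arrays from P2 to P15, with grey shading for ages taken from head sections, blue for P5 and red for P9. Serous acinar markers at P9 lie above all P5 arrays, the lipid and white adipocyte lists below them, while muscle, epidermis, hair follicle and bone lists differ widely between arrays of 1 age.

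Few single probe sets passed the test at this step. With limma over all 27 arrays and Benjamini-Hochberg adjustment at 0.05, 4 probe sets rose (0.0129% of those tested) and 5 fell (0.0161%), together 0.029%. The rise with a gene symbol was Smr3a, a precursor of secreted salivary peptides. The named falls were Cwh43, a membrane protein of lipid remodelling, Kcnip1, a calcium-binding partner of potassium channels, Mex3b, an RNA-binding protein, and Cebpa, a transcription factor of fat, liver and myeloid cells. In all 4070 probe sets (13.1%) had an unadjusted p under 0.05. Over all probe sets the median size of change was 0.39 units, against 0.27 from P2 to P5 and 0.27 from P9 to P15. The median SE was 0.40 in each. With its sign, the median change from P5 to P9 was 0.09 over all probe sets and -0.14 over the brighter ones (mean above the median). The count with an unadjusted p under 0.05 was 3200 with quantile normalisation. It was 2735 with muscle, epidermis and cartilage markers as covariates.

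To describe more than 9 probe sets, a wider set was taken without regard to adjusted p: unadjusted p under 0.01, a change of at least 1 unit, and no overlap between the 3 P9 and the 3 P5 arrays. It held 637 probe sets (2.05% of those tested), 238 higher at P9 (0.767%) and 399 lower (1.29%), with 125 and 294 named genes. For genes of this set that did not pass the adjusted threshold, values are given and no change is claimed. Without overlap alone, 4542 probe sets were higher at P9 (14.6%) and 2471 lower (7.96%).

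Smr3a rose, and most other saliva proteins of the wider set lay higher at P9. Smr3a lay at 9.94, 8.82 and 9.40 in the P5 arrays and at 11.89, 12.34 and 12.36 in the P9 arrays. The ages did not overlap, and the P15 arrays, at 13.96, 14.13 and 14.00, were higher again. Smr3a rose by 2.81 ± 0.43 from P5 to P9 (limma adjusted p = 0.00757), and its further 1.83 ± 0.43 to P15 did not pass (adjusted p = 0.167). Its P2 arrays were at 10.77, 11.48 and 10.90, above those of P5, so the P5 level was the lowest of these 4 ages. On arrays whose values are not in that difference, it rose by 2.98 ± 0.43 from P2 to P15 (adjusted p = 0.00161). Without P5 replicate 2 the change from P5 to P9 was 2.53 (adjusted p = 0.0778) and without P9 replicate 3 it was 2.73 (adjusted p = 0.0720), so the call was lost in both.

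The other saliva proteins had a like course but missed the threshold from P5 to P9. Prpmp5, a proline-rich protein, lay at 9.37, 10.07 and 10.09 at P5 and at 12.39, 12.60 and 12.13 at P9, a difference of 2.53 ± 0.87 (adjusted p = 0.259). Pip, prolactin-induced protein, lay at 10.35, 11.23 and 8.85 at P5 and at 11.75, 11.41 and 12.33 at P9 (1.69 ± 0.53, adjusted p = 0.233). Obp2b, an odorant-binding lipocalin, lay at 3.64, 4.07 and 4.18 at P5 and at 7.27, 5.09 and 5.45 at P9 (1.97 ± 0.58, adjusted p = 0.211). In each of these genes every P9 array was above every P5 array, and the P15 mean was higher than the P9 mean by 0.86 in Prpmp5, 1.66 in Pip and 1.02 in Obp2b. Against P5 the P15 arrays of Pip (3.35, adjusted p = 0.00287) and Obp2b (3.00, adjusted p = 0.0168) passed.

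Chia and Prb3 were at the start of a longer course. Chia, an acidic chitinase, lay at 2.98 to 3.11 at P5 and at 4.05, 3.26 and 5.42 at P9, which is 1.18 ± 0.35 higher (adjusted p = 0.208). At P15 it lay at 9.84, 10.29 and 9.95, a rise of 5.79 ± 0.35 over P9 (adjusted p = 2.75e-09), and it rose by 6.82 ± 0.35 from P2 to P15 (adjusted p = 1.00e-10). Its change from P9 to P15 was larger than that from P5 to P9 by the test of the difference (4.60, adjusted p = 0.00211). Prb3, a proline-rich protein, lay at 4.80, 5.27 and 5.24 at P5, at 6.73, 5.91 and 5.80 at P9 (1.04 ± 0.33, adjusted p = 0.233) and at 7.29, 8.16 and 7.24 at P15. Prb3 rose by 2.18 ± 0.33 from P2 to P15 (adjusted p = 0.00204). Ero1b, an oxidase that makes disulfide bonds in the endoplasmic reticulum, followed them at 8.70, 7.93 and 8.05 at P5, 9.26, 9.17 and 9.49 at P9 (1.08 ± 0.36, adjusted p = 0.255) and 10.10, 10.49 and 10.15 at P15. It rose from P2 to P15 as well (1.76 ± 0.36, adjusted p = 0.0430).

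Not every saliva protein took part. Of 26 measured genes of secreted saliva proteins, 1 passed the threshold at this step, 6 were in the wider set as higher and 1 as lower, 11 had all P9 arrays above all P5 arrays and 1 had them below. The median difference was 0.45, against -0.02 over the 14217 named genes with their brightest probe set. Of those genes 0.513% were in the wider set as higher and 1.65% as lower, while 11.9% lay wholly above and 10.3% wholly below. The lower member was Bpifa1, which is secreted in the upper airway, at 8.43, 8.93 and 8.23 at P5, 6.90, 7.32 and 6.24 at P9 (-1.71 ± 0.51, adjusted p = 0.212) and 4.67, 4.70 and 4.05 at P15. From P2 to P15 Bpifa1 fell by 4.02 ± 0.51 (adjusted p = 0.000342). For the major products Amy1 and Bpifa2 no change was detected at this step. Amy1, salivary amylase, lay at 12.43 to 12.99 at P5 and 12.60 to 13.22 at P9 (0.17 ± 0.64, adjusted p = 0.925). Bpifa2 differed by 0.28 ± 0.34 (adjusted p = 0.726). Whether they had reached their final level was not tested. Smgc, best known from the sublingual and submandibular glands, lay at 9.78, 13.09 and 12.05 at P5 and at 13.12, 13.23 and 13.42 at P9, and then fell by 10.02 ± 1.41 to P15 (adjusted p = 0.00272). It was the highest of the 3 measured genes that mark other salivary and lacrimal glands, and its part in the other results was not tested.

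Genes for fluid secretion were mostly on the same side, with smaller differences. Of 27 measured genes none passed the threshold, 9 lay wholly above at P9 and none wholly below, and the median was 0.40. Of all named genes 11.9% lay wholly above and 10.3% wholly below. Car2, a carbonic anhydrase, lay at 6.15, 5.50 and 6.43 at P5 and at 8.52, 8.60 and 7.03 at P9 (2.02 ± 0.59, adjusted p = 0.208). Chrm3, the muscarinic receptor that starts fluid secretion, lay at 2.78, 3.03 and 2.60 and then at 4.98, 4.02 and 4.47 (1.69 ± 0.64, adjusted p = 0.295). In both the P2 arrays, at 6.70 to 7.88 and 3.68 to 4.99, lay above those of P5, and the P15 means were within 0.5 units of P9. Slc12a2, the sodium-potassium-chloride cotransporter, was 0.42 ± 0.25 higher (adjusted p = 0.465).

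The saliva protein genes of the wider set that went on to P15 are shown with the 60 bases before their start sites, since these members were higher together and a TATA motif close to the start is a usual feature of strongly transcribed genes. The windows come from RefSeq on build GRCr8 and lie at chr14:20338821-20338880 on the minus strand for Smr3a, chr4:167271667-167271726 on the minus strand for Prpmp5, and on the plus strand at chr4:71754205-71754264 for Pip, chr4:167295774-167295833 for Prb3, chr3:28980126-28980185 for Obp2b and chr2:196302627-196302686 for Chia. Each is written 5′ to 3′ on the gene's strand with TATAAA in capitals.
Smr3a: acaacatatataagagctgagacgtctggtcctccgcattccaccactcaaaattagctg
Prpmp5: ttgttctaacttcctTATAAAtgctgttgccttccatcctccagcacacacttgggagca
Pip: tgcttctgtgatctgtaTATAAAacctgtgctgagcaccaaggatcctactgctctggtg
Prb3: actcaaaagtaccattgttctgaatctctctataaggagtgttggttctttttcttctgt
Obp2b: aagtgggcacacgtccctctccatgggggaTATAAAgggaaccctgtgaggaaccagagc
Chia: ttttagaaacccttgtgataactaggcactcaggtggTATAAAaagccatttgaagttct
The motif TATAAA was in 4 of these 6 windows on the gene's strand, beginning 45 bases before the start in Prpmp5, 43 in Pip, 30 in Obp2b and 23 in Chia. Of all 33469 promoters, 2.61% held it in this window on that strand and 3.69% on either strand. The windows of Smr3a and Prb3 did not hold TATAAA, though both held TATAAG, whose share over all promoters was not counted. None of the 6 held TATAAA on the opposite strand. The motif was not confined to genes that were higher, since the window of Cebpa, which fell, held it as well, beginning 35 bases before the start. The window of Mex3b, which also fell, did not hold it. Whether the motif sets the saliva protein genes apart was not tested, since these members were chosen on their values.

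Lipid genes were lower at P9. PPARG is the nuclear receptor that turns on fat storage genes, and its targets include droplet proteins, fatty acid carriers and enzymes of triglyceride synthesis. Of 32 measured genes of this list none passed the threshold at this step, 11 were in the wider set as lower and 1 as higher, and 21 lay wholly below P5 against 1 wholly above. The median difference was -1.62, and 30 of the 32 were lower. Of all named genes 1.65% were in the wider set as lower and 0.513% as higher. Wholly below lay 10.3% of them and wholly above 11.9%. The list averaged 9.12, 8.63 and 8.57 in the P5 arrays and 7.64, 6.86 and 7.80 in those of P9, with P15 at 6.62 to 7.17, so the arrays of the 2 ages did not overlap, and the P15 arrays reached no higher than those of P9. The P2 arrays, at 8.63, 7.37 and 8.01, were spread across both ages.

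Within the list the differences ran through the pathway. Pparg itself lay at 7.86 to 8.34 at P5 and at 6.57, 5.82 and 6.97 at P9 (-1.61 ± 0.47, adjusted p = 0.207). Its P2 mean was 7.18, so P5 was the highest of these 4 ages. Retsat, which saturates retinol and is needed for fat cell formation, lay at 10.01, 9.20 and 9.90 at P5 and at 7.55, 7.51 and 8.11 at P9, and it missed the threshold narrowly (-1.98 ± 0.37, adjusted p = 0.0552). Its P15 arrays, at 8.36, 7.39 and 7.91, stayed there and fell against P5 (adjusted p = 0.0256). Rbp4, the plasma carrier of retinol, lay at 10.31, 9.88 and 9.21 at P5, at 7.98, 5.50 and 6.84 at P9 (-3.02 ± 0.66, adjusted p = 0.101) and at 5.40 to 6.25 at P15, where it had fallen by 3.87 against P5 (adjusted p = 0.00553). The last enzyme of triglyceride synthesis, Dgat2, lay at 9.55, 8.87 and 8.52 at P5 and at 6.08, 6.67 and 7.40 at P9 (-2.27 ± 0.54, adjusted p = 0.127), though its other probe set differed by -0.42. Plin4, a coat protein of lipid droplets (-1.61), Angptl4, an inhibitor of lipoprotein lipase (-1.92), Fabp4, a fatty acid carrier (-2.15), and Acsl1, which activates fatty acids (-1.86), were lower in every P9 array than in every P5 array. Acp5, an acid phosphatase best known from osteoclasts, was the 1 member of the wider set on the other side, at 5.92 to 6.39 at P5, 7.82 to 9.34 at P9 and 4.74 to 6.03 at P15.

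Markers of white fat cells stood on the same side as the lipid list. White adipocyte markers (11 measured, of which 6 lay wholly below and none wholly above) had a median of -1.61, and their mean was 7.66 to 8.17 at P5, 5.64 to 7.01 at P9 and 5.32 to 6.28 at P15. Of all named genes 10.3% lay wholly below and 11.9% wholly above. Adipoq, the hormone adiponectin that only fat cells make in quantity, lay at 9.80, 10.14 and 9.36 at P5 and at 8.66, 6.19 and 8.23 at P9 (-2.08 ± 0.77, adjusted p = 0.286). Brown adipocyte markers (9 measured) were divided, with 4 higher and 5 lower at P9 and a median of -0.38. In the wider set were 2 of them, Ucp1 and Dio2, both lower. Over all named genes 1.65% were in that set as lower. In these bulk samples fewer cells of a type and less RNA per cell cannot be told apart, and the part of fat cells in the lower lipid genes was not tested.

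**Figure D2:**
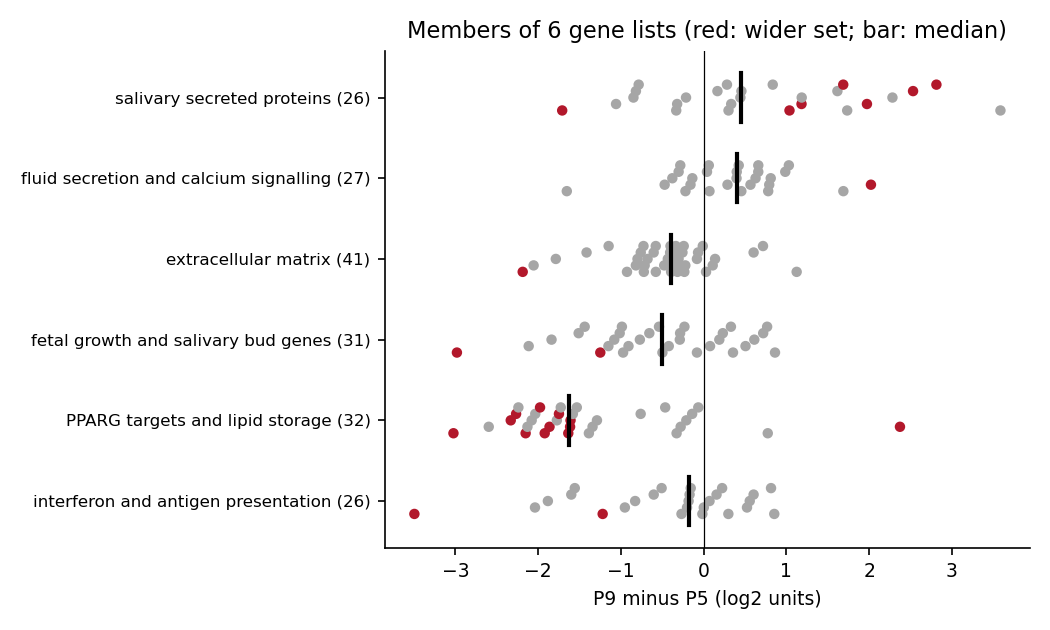
Difference P9 minus P5 (log2 units) for each measured member of 6 gene lists, 1 point per gene, with red for probe sets of the wider set and a black bar at the list's median. Lipid genes spread around their median of -1.62, with 30 of 32 below 0 and Acp5 at 2.37. Saliva proteins spread from -1.71 (Bpifa1) to 3.59 (Smr3b, adjusted p = 0.363) around 0.45, and antigen presentation genes lie around -0.18.

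Vcan, Gpc3 and Mycn, genes of matrix and growth, were lower at P9 and lower again at P15. Vcan, the matrix proteoglycan versican, lay at 8.15, 8.02 and 8.05 at P5, at 4.75, 6.66 and 5.61 at P9 (-2.40 ± 0.46, adjusted p = 0.0552) and at 3.41, 5.30 and 4.64 at P15. Its P2 arrays, at 7.38 to 8.30, were at the level of P5, and it fell by 3.36 ± 0.46 from P2 to P15 (adjusted p = 0.000787). The other 4 probe sets of Vcan differed by -0.73 to -1.71 from P5 to P9, none past the threshold. Gpc3, a glypican that restrains growth factor signalling, lay at 11.01, 11.24 and 10.74 at P5, at 10.22, 9.32 and 9.70 at P9 and at 8.90, 7.73 and 8.53 at P15. It was 1.25 ± 0.43 units below P5 at P9 (adjusted p = 0.259) and fell by 2.54 ± 0.43 from P2 to P15 (adjusted p = 0.00790). Mycn, a growth-promoting transcription factor, lay at 8.18, 6.10 and 6.10 at P5, at 4.21, 3.37 and 3.86 at P9 (-2.98 ± 0.70, adjusted p = 0.120) and at 2.92 to 3.43 at P15, while its P2 arrays were spread from 4.50 to 7.55.

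As lists these groups moved less than the single genes. Extracellular matrix genes (41 measured, with Vcan represented by another, brighter probe set outside the wider set) had a median of -0.39, with 35 lower, 9 wholly below and none wholly above, where 10.3% of all named genes lay wholly below and 11.9% wholly above. Its 1 member in the wider set, Fbln5, an elastic fibre protein, came back at P15, and the list's median from P9 to P15 was -0.34. Fetal growth and salivary bud genes (31 measured) had a median of -0.50, with 8 wholly below and 1 wholly above and a median of -0.23 from P9 to P15. The 1 wholly above was Sox2, a stem cell factor, at 5.33 to 5.95 at P5 and 6.19 to 6.66 at P9 (0.77 ± 0.22, adjusted p = 0.206). Sox11, a factor of embryonic progenitors, was among the lower, at 6.69 to 7.70 at P5, 6.16 to 6.34 at P9 and 5.39 to 5.71 at P15. S100a14, a calcium-binding protein of squamous epithelia, and Lypd3, a surface protein of keratinocytes, were lower by 1.58 ± 0.43 and 1.66 ± 0.51 at P9 and fell by 2.58 ± 0.43 (adjusted p = 0.00749) and 2.47 ± 0.51 (adjusted p = 0.0467) from P2 to P15.

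In some genes P5 stood above P2, P9 and P15, and in Cwh43 and Kcnip1 these other ages had a like level. The group overlaps the lipid genes. The P2 and P15 means of Pparg (7.18 and 6.15), Dgat2 (7.62 and 6.24) and Acsl1 (9.57 and 8.91) also lay nearer to P9 than to P5. In Retsat, Rbp4, Plin4, Angptl4 and Fabp4 the P2 mean lay nearer to P5. Cwh43 lay at 5.11, 6.01 and 5.58 at P5 and at 2.31, 2.20 and 2.22 at P9, with P2 at 1.96 to 2.92 and P15 at 1.78 to 2.46. All 3 P5 arrays were more than 2 units above the other 9 arrays of these ages. From P5 to P9 Cwh43 fell by 3.32 ± 0.39 (adjusted p = 0.000799), after a rise of 3.10 ± 0.39 from P2 to P5 (adjusted p = 0.00128). Kcnip1 lay at 5.76, 5.14 and 4.97 at P5 and at 3.44, 3.77 and 3.52 at P9, with P2 at 2.93 to 3.36 and P15 at 3.07 to 3.38. It fell by 1.71 ± 0.25 (adjusted p = 0.00681) after a rise of 2.13 ± 0.25 (adjusted p = 0.000825), though its other 2 probe sets differed by 0.02 and 0.58 from P5 to P9. The fall missed the threshold without P5 replicate 1 (adjusted p = 0.0554) or P9 replicate 3 (adjusted p = 0.0708). These 2 probe sets were all that passed from P2 to P5 (0.00644% of those tested, all higher).

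Other named genes were also higher at P5 than at the ages around it. Ucp1, the uncoupling protein of brown fat, lay at 9.76, 6.66 and 9.33 at P5, at 5.17, 6.48 and 4.70 at P9 (-3.13 ± 0.70, adjusted p = 0.108) and at 4.36 to 7.60 at P2. Dio2, which activates thyroid hormone in brown fat, was at 4.57 to 5.52 at P5 and at 3.52 to 3.87 at P9 (-1.38 ± 0.34, adjusted p = 0.135), with P2 at 3.59 to 4.13. S100a7l2, of the family of epidermal S100 proteins, lay at 5.81, 9.60 and 7.06 at P5 and at 3.12 to 3.42 at P9 (-4.22 ± 0.90, adjusted p = 0.0949), and Il1rn, the natural interleukin 1 blocker of skin and phagocytes, at 7.24, 9.36 and 8.86 and then at 3.66 to 5.30 (-4.02 ± 0.88, adjusted p = 0.101). Both were highest in P5 replicate 2, the array highest in keratinocyte markers. Egr2, a factor of myelinating Schwann cells, lay at 9.67, 11.53 and 10.03 at P5, 6.93 to 8.07 at P9 and 7.13 to 7.83 at P2 (-2.82 ± 0.68 from P5 to P9, adjusted p = 0.134).

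Keratinocyte markers were mostly lower at P9 as well. Of the 13 measured, 6 lay wholly below P5 and none above, with a median of -2.26, where 10.3% of all named genes lay wholly below. Lgals7, a galectin of stratified epithelia, was the member with the largest ratio of difference to error, at 10.68 to 11.59 at P5 and 8.68 to 9.81 at P9 (-2.04 ± 0.46, adjusted p = 0.108), and Krtdap, a keratinocyte differentiation protein, lay at 8.40, 12.85 and 6.44 at P5 and at 5.26 to 6.43 at P9. Their part in the lower genes was not tested.

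Cebpa and Mex3b, which fell at P9, had P15 means at least 0.5 units above P9. The probe set of Cebpa that passed lay at 10.45, 10.79 and 10.20 at P5, at 9.07, 8.76 and 8.36 at P9 and at 9.57, 9.69 and 9.77 at P15, and its P2 arrays lay at 9.63 to 9.97. It fell by 1.75 ± 0.27 from P5 to P9 (adjusted p = 0.00757), and its difference of 0.95 ± 0.27 from P9 to P15 did not pass (adjusted p = 0.390). The test of the next step against this one gave 2.70 (adjusted p = 0.0401), a value that holds the fall itself. Of its other 4 probe sets 3 were lower at P9, by 2.38, 2.33 and 1.17, and 1 differed by 0.22, none past the threshold. Mex3b lay at 7.68, 8.01 and 8.04 at P5, at 5.47, 5.96 and 5.34 at P9 and at 6.82, 6.36 and 6.07 at P15, so that its fall of 2.32 ± 0.35 (adjusted p = 0.00757) was followed by a P15 mean of 6.42, nearer to P9 than to P5. Without P5 replicate 2 Cebpa (adjusted p = 0.0730) and Mex3b (adjusted p = 0.0544) missed the threshold, as they did without P9 replicate 3 (adjusted p = 0.0766 and 0.0720).

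A few antigen presentation genes had lower means at P9 than at P5 and P15, while their list as a whole did not stand out. RT1-Ba, the alpha chain of a class II molecule of the major histocompatibility complex, lay at 7.72, 7.75 and 9.42 at P5, at 5.39, 5.32 and 3.69 at P9 and at 9.59, 8.88 and 7.83 at P15. It was 3.49 ± 0.75 units lower at P9 (adjusted p = 0.0966) and rose by 3.97 ± 0.75 to P15 (adjusted p = 0.0446). The test of the next step against this one gave 7.46 (adjusted p = 0.0412), a value that holds the first difference. RT1-Ba was in the wider set, which was chosen on that difference. Its other 3 probe sets differed by -0.06, 1.00 and 0.77 from P5 to P9. B2m, the light chain of class I molecules, lay at 10.97 to 11.76 at P5, 10.05 to 10.52 at P9 and 10.81 to 11.69 at P15 (-1.22 ± 0.28 from P5 to P9, adjusted p = 0.116), with P2 at 10.23 to 10.69. RT1-Da and RT1-Db1, both chains of class II molecules, had the same course with means of 7.83 and 7.83 at P5, 5.95 and 5.79 at P9 and 8.62 and 8.55 at P15. Of the 26 measured genes of the interferon and antigen presentation list, 2 were in the wider set, both lower, 10 were higher at P9 and 16 lower, and the median was -0.18. Over all named genes 1.65% were in the wider set as lower.

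Some genes of hair, granulocytes and bone were higher at P9 than at P5 and P15. Krtap1-5, a keratin-associated protein of hair, lay at 5.46, 5.59 and 7.30 at P5, at 9.36, 9.62 and 8.15 at P9 (2.92 ± 0.56, adjusted p = 0.0552) and at 5.71 to 6.16 at P15, to which it fell by 3.04 ± 0.56 (adjusted p = 0.0380). Krt86, a hair keratin, lay at 5.64 to 8.90 at P5 and at 9.38 to 11.12 at P9 (3.22 ± 0.92, adjusted p = 0.205) and fell by 5.21 ± 0.92 to P15 (adjusted p = 0.0273). The 8 measured hair follicle markers averaged 9.60, 8.58 and 7.21 in the P9 arrays, 8.89 and 8.95 in P5 replicates 1 and 3 with replicate 2 lower, and 4.72 to 4.93 at P15. The mean over the P2 arrays was 8.58 against 8.46 at P9, so the list was not higher at P9 than at P2, and its median from P5 to P9 was 0.27, with 3 of 8 lower. Krt86 was also high in P2 replicate 2, at 11.04, and Krtap1-5 at 8.62. Granule genes of white blood cells, Camp (cathelicidin), Defa5 and Np4 (defensins), lay at 3.64 to 4.81 at P5 and were highest in P9 replicate 3, at 8.06, 9.51 and 7.81, against 5.17, 5.23 and 5.06 in P9 replicate 1 and 6.14, 6.79 and 6.25 in P9 replicate 2. Their differences of 2.53, 2.87 and 2.05 did not pass (adjusted p = 0.0579, 0.0801 and 0.105). Mmp9, a protease of osteoclasts and granulocytes, lay at 3.76, 8.55 and 5.30 at P9, and Ibsp, a bone matrix protein, at 2.30, 12.36 and 9.27, where P5 had 2.98 to 3.26 and 2.50 to 3.53. Cartilage and bone markers (15 measured) lay wholly above P5 in 6 genes and wholly below in none, with a median of 0.56, where 11.9% of all named genes lay wholly above. The part of these tissues in the higher genes was not tested.

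Unnamed probe sets made up 4 of the 9 that passed. The first rose by 2.36 ± 0.42 (adjusted p = 0.0453), from 5.45 to 6.30 at P5 to 8.09, 8.74 and 8.26 at P9, lay at 10.19 to 10.66 at P15 and rose from P2 to P15 as well (adjusted p = 2.80e-05). Another rose by 4.58 ± 0.74 (adjusted p = 0.0144), from 3.89, 2.01 and 4.13 to 8.98, 6.86 and 7.92, and fell by 5.43 to P15 (adjusted p = 0.00227), where it lay at 2.03 to 2.84. The call of the first was lost without any 1 of the 3 P5 arrays, P9 replicates 2 and 3 or P15 replicates 2 and 3 (adjusted p = 0.0564 to 0.149), and it passed in 10 of 23 alternative settings. That of the second was lost without P5 replicate 2 (adjusted p = 0.102), P9 replicate 1 (adjusted p = 0.0559) or P9 replicate 3 (adjusted p = 0.0766). The third rose by 2.35 ± 0.33 (adjusted p = 0.00472), and the last fell by 3.64 ± 0.49 (adjusted p = 0.00427), from 8.10 to 8.62 at P5 to 4.27 to 4.88 at P9, and stayed at 4.18 to 5.05 at P15.

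**Figure D3:**
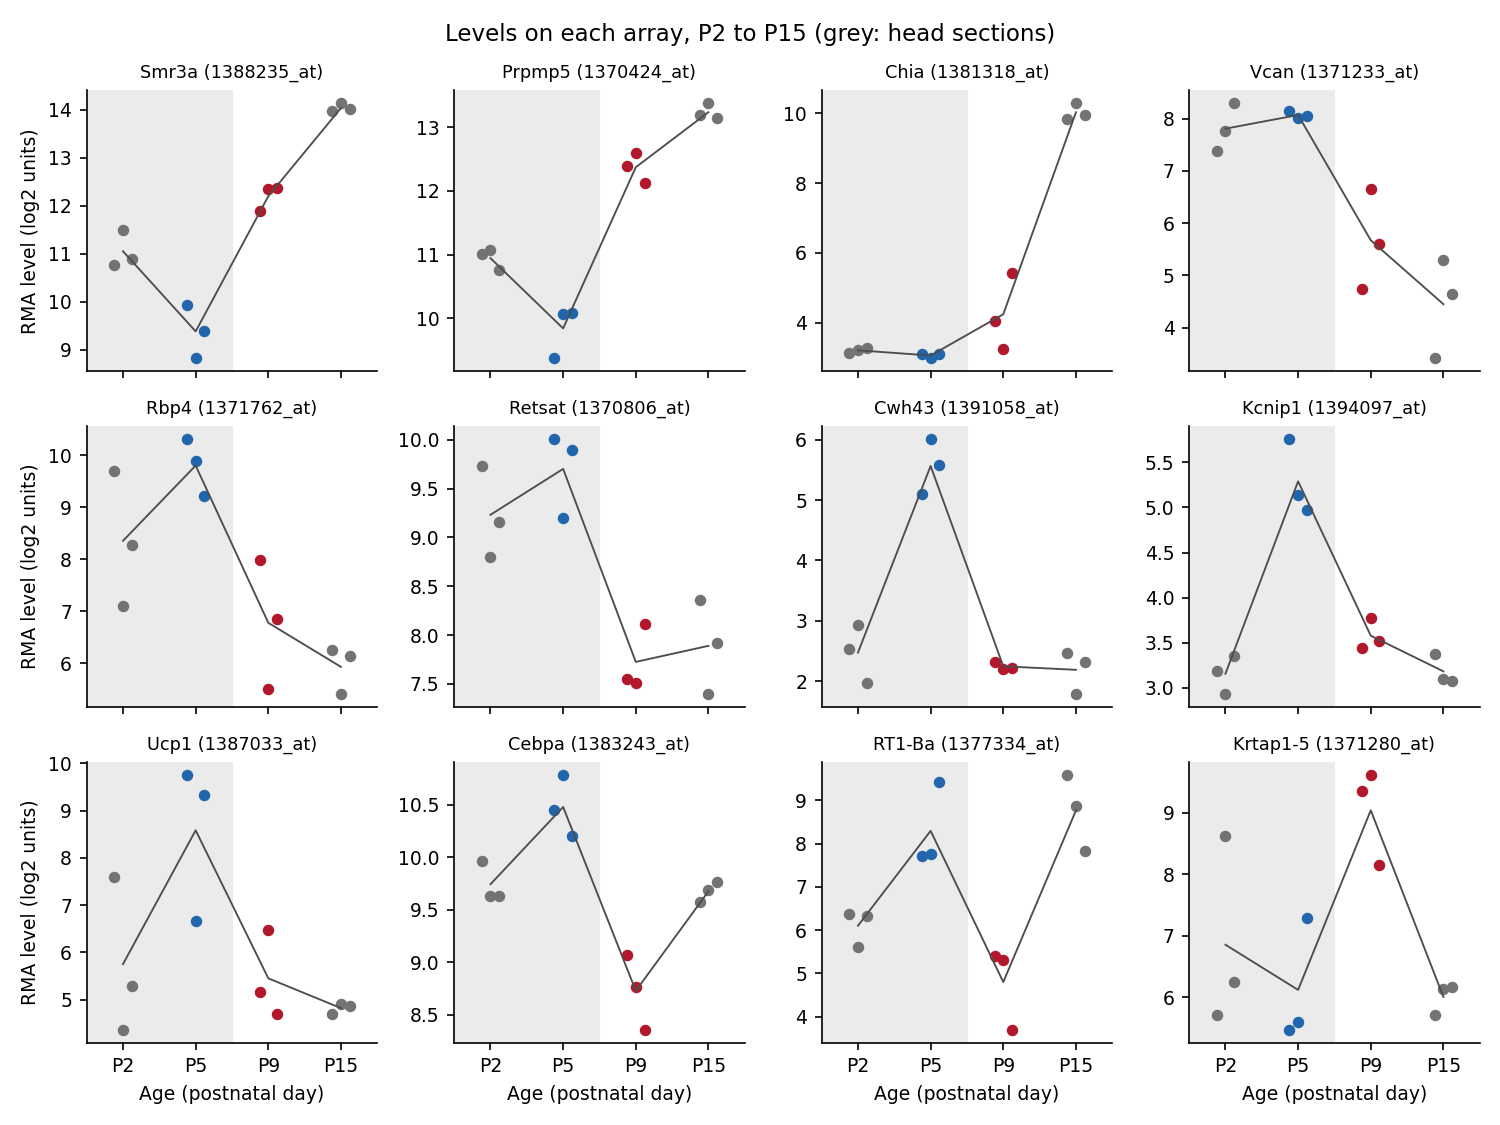
Log2 level on each of the 3 arrays per age from P2 to P15 for 12 probe sets, with lines through the means, grey shading for head sections, blue for P5 and red for P9; each vertical axis has its own range. The top row and Rbp4 go on from P9 to P15, Retsat stays level, Cwh43, Kcnip1 and Ucp1 are high at P5 against the ages around it, and Cebpa, RT1-Ba and Krtap1-5 come back at P15.

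The main question was which differences of the wider set went on at P15. A probe set was said to go on when P15 lay at least 0.5 units beyond P9 in the same direction, to stay level within 0.5 units, and to come back when P15 lay at least 0.5 units the other way. Of the 637 probe sets 59 went on (9.26%), 275 stayed level (43.2%) and 303 came back (47.6%). Among those higher at P9 the counts were 15, 93 and 130, and among those lower 44, 182 and 173. The classes share the P9 arrays with the choice of the set, so the number that came back holds probe sets whose P9 arrays stood out for any reason. Counts rested on single arrays: 575 of 803 came back without P9 replicate 2, 602 of 855 without P9 replicate 3 and 196 of 464 without P5 replicate 1, while those that went on were 40 and 31 without P9 replicates 2 and 3. With both P5 replicate 2 and P9 replicate 3 left out, 21 went on, 275 stayed level and 552 came back, of 848.

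Few of these further changes passed a test of their own. From P9 to P15 19 probe sets passed (0.0612%), of which 2 in the wider set moved on in the same direction, Chia and an unnamed one (-2.30), and 5 moved back, Krtap1-5, Krt86, RT1-Ba and 2 unnamed ones. From P5 to P15, a comparison that shares the P5 arrays, 162 probe sets passed (0.522%), among them 16 that were higher (0.155% of all rose) and 58 that were lower (0.367% of all fell) in the wider set, and none in the opposite direction. The test of the next step against this one was passed by 7 probe sets (0.0226%), of which 6 were in the wider set. That test holds the difference from P5 to P9 that chose the set, so the overlap is no separate evidence.

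Differences restricted to this step were those that stayed level at P15 and whose P2 mean lay within 0.5 units of P5. There were 127 of them, 60 higher and 67 lower. Retsat was the one with the smallest p, and 7 of them passed from P5 to P15: Retsat, Mgst1, a glutathione transferase of membranes (-1.28 from P5 to P9, with means of 10.85 at P2, 11.28 at P5, 10.01 at P9 and 9.57 at P15), Tfap2b, a transcription factor of the AP-2 family (1.21, with 7.93, 7.80, 9.01 and 9.47), Pigx, of the synthesis of membrane anchors (-1.04), Hpcal1, a neuronal calcium sensor (1.03), and 2 unnamed probe sets (-2.81 and -1.05). Apart from Retsat these were singled out after their values were seen. None of the 7 passed from P2 to P15 (adjusted p = 0.0560 to 0.320). Since the tissue changed from head section to dissected gland at the same point, preparation and age cannot be told apart for these genes.

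The P2 and P15 means were then set beside those of P5 and P9. The P2 and P15 arrays are not in the difference that chose the set, though they enter the error term of its p-values. For 263 of the 637 probe sets (41.3%) the P2 mean lay nearer to P5 and the P15 mean nearer to P9, as for Vcan, Rbp4, Retsat, Prpmp5 and Chia. For 203 (31.9%) P2 and P15 both lay nearer to P5, so that P9 stood apart, as for Cebpa, Krtap1-5 and Camp. For 143 (22.4%) both lay nearer to P9 than to P5, as for Cwh43 and Ucp1, in which P5 stood apart. This placement also held probe sets that went on at P15, such as Smr3a, whose P15 mean lay beyond that of P9. It was held by 114 of the 399 lower probe sets (28.6%) and 29 of the 238 higher ones (12.2%). Only 28 (4.40%) had P2 nearer to P9 and P15 nearer to P5, among them RT1-Ba and B2m.

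**Figure D4:**
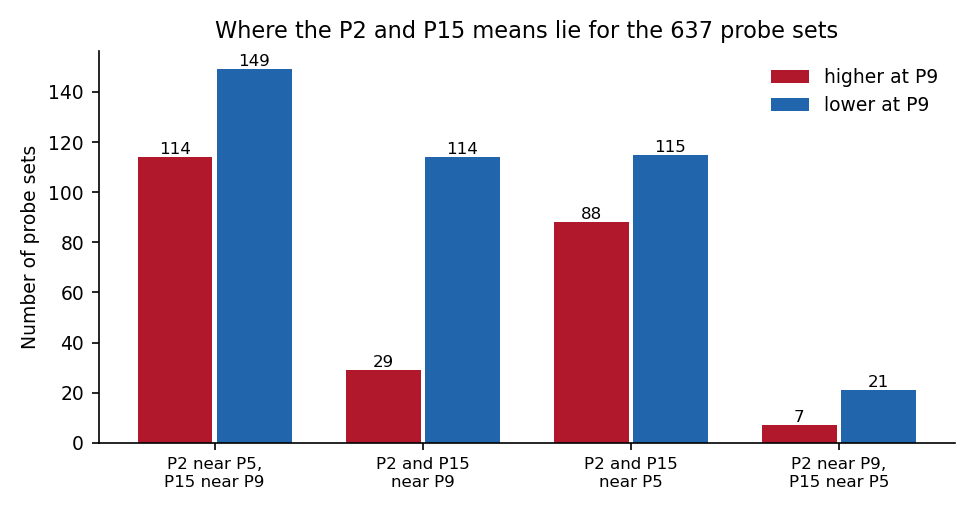
Number of the 637 probe sets of the wider set, split by direction at P9, for each of 4 placements of the P2 and P15 means relative to those of P5 and P9. The step with P2 near P5 and P15 near P9 is the most frequent, with 114 higher and 149 lower. Both P2 and P15 lie nearer to P9 in 114 of the lower but 29 of the higher.

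P15 minus P2 spans the same change of preparation on other arrays. In that comparison 50 probe sets passed over the whole table, 23 higher (0.0741%) and 27 lower (0.087%). Of the wider set 7 rose and 11 fell with the sign they had from P5 to P9, and none passed with the opposite sign. The rises were Smr3a, Chia, Prb3, Ero1b and 3 unnamed probe sets. The falls were 3 probe sets of Vcan, 2 of S100a14, Gpc3, Bpifa1, Lypd3, Fdps, an enzyme of isoprenoid synthesis (-1.64 ± 0.32, adjusted p = 0.0347), and 2 unnamed probe sets. A difference of at least 1 unit in the same direction was seen in 58 of the 238 higher probe sets (24.4%), where 4.57% of all probe sets had one, and in 108 of the 399 lower ones (27.1%, against 4.14%). Some members differed by at least 1 unit the other way, such as Krt86 (-2.34) and RT1-Ba (2.66), and their share was not counted. The classes are no separate evidence here, since the P15 level sorts the probe sets and also enters P15 minus P2.

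**Figure D5:**
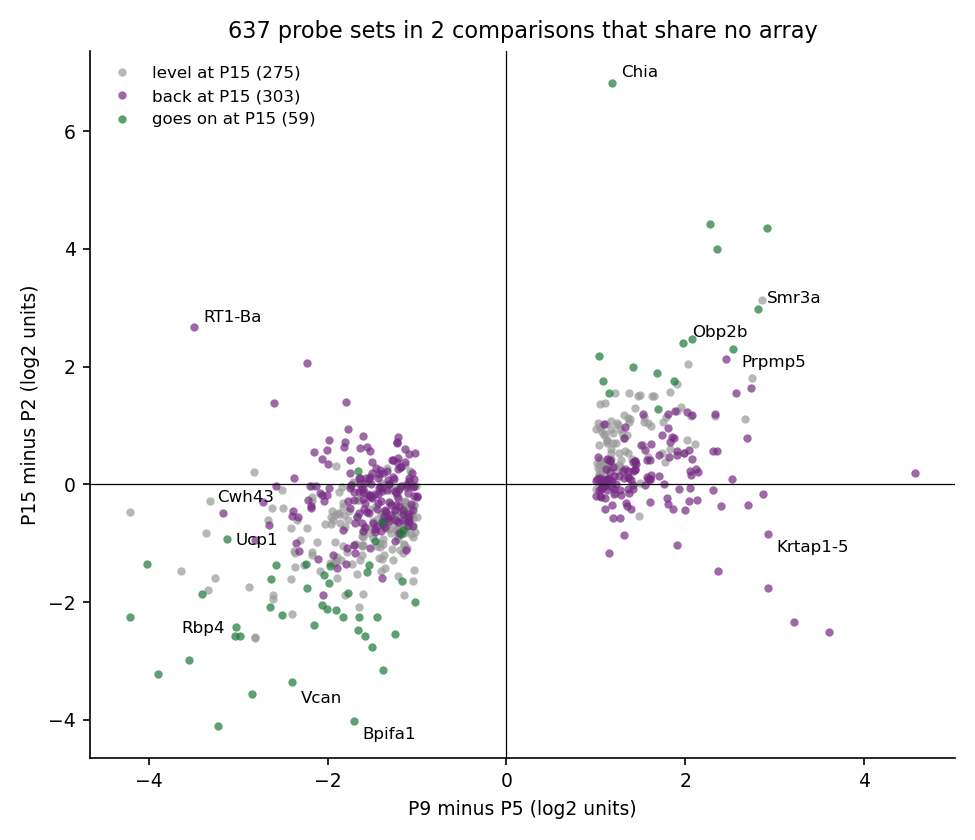
P9 minus P5 against P15 minus P2 (both in log2 units) for the 637 probe sets of the wider set, coloured by what P15 did relative to P9. Chia, Smr3a and Bpifa1 lie far from 0 on the vertical axis, while Cwh43 and most probe sets that came back lie near 0 on it. On the horizontal axis Chia, at 1.18, lies near the limit of 1 unit for the set.

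The other 25 gene lists held no member past the threshold among their 436 measured entries. Their medians from P5 to P9 ran from -0.67 for endothelial markers to 0.49 for erythroid markers, and 2 of their entries were in the wider set as higher and 16 as lower, where 0.513% of all named genes were in it as higher and 1.65% as lower. For wholly separate arrays the shares of all named genes were 11.9% above and 10.3% below. Oxidative phosphorylation genes (27 measured) were lower in 26, with a median of -0.39 and 4 wholly below. Over all brighter probe sets the median was itself -0.14. The 4 measured reference genes, all lower, had a median of -0.57, and the least bright of them, Tbp, lay at 3.93 in P9 replicate 1 against 6.14 and 6.83 in the other P9 arrays and 6.60 to 7.70 at P5. Mitosis genes (33 measured) had a median of -0.15, with 1 wholly below. Of 43 genes of protein folding in the endoplasmic reticulum 3 lay wholly above and 5 wholly below, shares near those of all named genes, with a median of -0.20, and from P9 to P15 their median was 0.36.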

How the data were processed

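For each of 27 arrays the deposited values were log2 signals that the authors had made with RMA, a method that corrects background, equalises arrays and combines the probes of a set. Its software version is not given in the sources used here. Of 31099 probe sets 57 array controls were left out and 31042 tested. Probe sets were named from the platform annotation: 20826 with 1 symbol (14217 genes), 436 with several and 9780 with none, here unnamed; 20758 matched the reference gene table. Groups came from the labels. Models were fitted with limma 3.58.1 (R 4.3.3) over all arrays, each age having its own coefficient, with 18 residual degrees of freedom, empirical Bayes moderation, two-sided p-values and Benjamini-Hochberg adjustment over all probe sets, after a check on simulated data. A listed gene was represented by its brightest probe set. There were 21 pathway and 18 marker lists. Named genes were those past the threshold, filled up to 12 per direction by moderated t, up to 4 per list and up to 6 per class at P15. All probe sets of such genes and the brightest members of marker lists were added. Other genes, among them those past the threshold from P2 to P15, were named after their values were seen. Members, lists and limits were chosen with earlier results of these data known, and the placement of P2 and P15 was added after values were seen. RNA input was 1.5 or 4.5 ng per the labels, with no amount given per array. With 3 arrays per age, their number limits the precision.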

Additional observations from a re-analysis of the deposited data

How the results depend on the processing

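The number of probe sets past the threshold from P5 to P9 (9) was 0 with only the P5 and P9 arrays in limma (3610 at an unadjusted p under 0.05), 23 with quantile normalisation, 3 over the brighter probe sets (mean above the median), 85 with array weights and 1 with muscle, epidermis and cartilage markers as covariates, that one being Cwh43. It was 3 to 26 when 1 array was left out, 3 of them without P9 replicate 3, 26 without P9 replicate 1, 20 without P9 replicate 2 and 15 without P5 replicate 3 or P15 replicate 1. With the ages P2, P5, P9 and P15 alone it was again 9, of which 4 were shared with the main fit. In that limma fit Cebpa (adjusted p = 0.0509), Kcnip1 (adjusted p = 0.0624) and the unnamed rise of 2.36 (adjusted p = 0.1235) missed the threshold. An alternative chosen after seeing the data, without P5 replicate 2 and P9 replicate 3, gave 3, and 85 from P5 to P15. Deviations of same-numbered P5 and P9 arrays from their age means correlated at 0.016, 0.093 and 0.033. Those of unlike-numbered arrays correlated at -0.124 to 0.095. With the replicate number as a block 24 passed. Whether arrays of 1 replicate number share something cannot be told from these values.

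The counts of the other comparisons, from P9 to P15 (19), P5 to P15 (162), P2 to P15 (50), P2 to P5 (2) and for the difference of steps (7), moved as follows. With the 4 ages alone they were 4, 94, within 1.5 times, 1 and 4. With quantile normalisation 33 passed from P9 to P15, and over the brighter probe sets 0 from P2 to P5. Array weights gave 70, 901, 213 and, for the difference of steps, 37. The marker covariates gave 8, 16 and, for the difference of steps, 0, and Xist minus Eif2s3y as a covariate gave 94 from P5 to P15. Leaving out 1 array gave 7 to 50, 44 to 186, 29 to 68, 2 to 16 and 3 to 24. The wider set (637) was 379 over the brighter probe sets and 382 with marker covariates, and 464 to 855 with 1 array left out. Its classes were 98 and 138 (went on, level) with a limit of 0.25 units, 30, 482 and 125 (came back) with 1 unit, 155 and 184 (level, came back) over the brighter probe sets, and 13 and 112 with marker covariates. With 1 array left out they were 31 to 71, 188 to 350 and 196 to 602, and without P5 replicate 2 and P9 replicate 3 21 went on and 552 came back. Among single probe sets 2 values far from the threshold changed sign, Pigr (-0.078 with marker covariates) and Amy1 (-0.039 with Xist minus Eif2s3y). The cause was not tested.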
